A study of Mus musculus with 2 samples.

Results

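The genes described here are the neural fate transcription factors spotted on a mouse neurogenesis membrane array. They were taken by symbol, from families that include Arnt, Ascl, Atoh, Dlx, Emx, Fez, Gli, Hes, Lhx, Neurod, Neurog, Nkx, Olig, Otx, Pax, Pitx, Pou, Sox, Tbr and Zic. Other families searched, among them Hey, Hox, Isl and Tcf, had no spot. This gave 33 of the 263 genes other than controls, with 1 spot each. Hesx1, a homeodomain gene, came in through the letters it shares with the Hes family. The rule uses symbols and no measured value, though it was drawn up with earlier results of these data known.

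The study compared the subventricular zone, the germinal layer along the lateral ventricle of the mouse brain, 4 days after the corpus callosum was injected with lysolecithin or with NaCl. Lysolecithin is a detergent-like lipid that strips myelin at the injection site, and NaCl was the saline control. The labels give adult mice at postnatal day 60, name no strain, genotype or sex, and do not say whether animals were pooled. The workbook heads the columns of both groups with the letters WT, which it does not explain. There was 1 sample and 1 array per group, so every difference below describes these 2 arrays, with no test and no replicate check. In dissected tissue, fewer cells of a type and less RNA per cell cannot be told apart.

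The workbook that names the genes carries the header of a neurogenesis and neural stem cell array, whereas the labels describe an array of 113 genes for neurotrophic signalling, and its project title names neural stem cells and another day. Group membership rests on the array names in that workbook, Nacl or WT Nacl and Lysolecithin or WT Lyso. It could not be established that the RNA on these membranes came from the labelled tissue, a limit that touches every value below. Few marker genes of the cell types in this tissue were on the array. Spots stood out from the film for 1 of 4 oligodendrocyte lineage markers (Olig1), 1 of 2 neuroblast markers (Stmn1), 1 of 2 astrocyte and neural stem cell markers (Nes) and 0 of 2 neuron markers on both arrays, and the microglia, endothelium and ependyma lists had 0 genes on the array.

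Transcription factors of these families act as a code for neural identity. Basic helix-loop-helix (bHLH) proteins bind the E box as dimers and either drive precursors into the neuronal or oligodendrocyte lineage or, in the Hes family, hold them back. Homeodomain, POU, SOX, paired box and zinc finger proteins mark the region a precursor comes from and the type of cell it becomes. In the adult subventricular zone, Pax6, Olig2 and members of the Dlx family are known regulators of the precursors that make olfactory bulb interneurons and oligodendrocytes.

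The measurement was the darkness of each spot on a film, the spot density, together with the density of the film just around it, the local background. A spot was counted as above the film where its density was at least 1.5 times its local background. The darkest spots piled up at similar densities, and spots of at least 57331 units were taken as near that ceiling. The exception was Chrd on the lysolecithin array, at 88903. Spot and local background are given unscaled below, and every log2 ratio is lysolecithin over NaCl.

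Few of these transcription factors stood out from the film. On the NaCl array 4 of the 33 were above it, namely Neurog3, Olig1, Otx2 and Pitx3, against 14.1% of all 263 genes. On the lysolecithin array 2 of 33 were, Neurog3 and Olig1, against 9.13% of all genes. Those 2 were the members above the film on both arrays, where 7.98% of all genes were. Both belong to the bHLH class. The shares of members were 12.1%, 6.06% and 6.06%, each a little under the share of all genes.

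Of the other members, most were as dark as the film beside them. For 28 of 33, the spot had between 80% and 125% of the density of its local background on both arrays, against 74.5% of all genes. Below the local background on both arrays were 12 of 33, against 35.4% of all genes, and above it on both were 14 of 33, against 43.7%. A spot at film level shows that no signal was resolved there, not that the RNA was absent. Dark spots can fail the rule too, where the film beside them is also dark. No spot of the controls Gapdh, Ppia, B2m and Hsp90ab1 was above the film on either array. The first Gapdh spot had 60307 over 60166 on the NaCl array and 60307 over 59945 on the lysolecithin array.

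**Figure D1:**
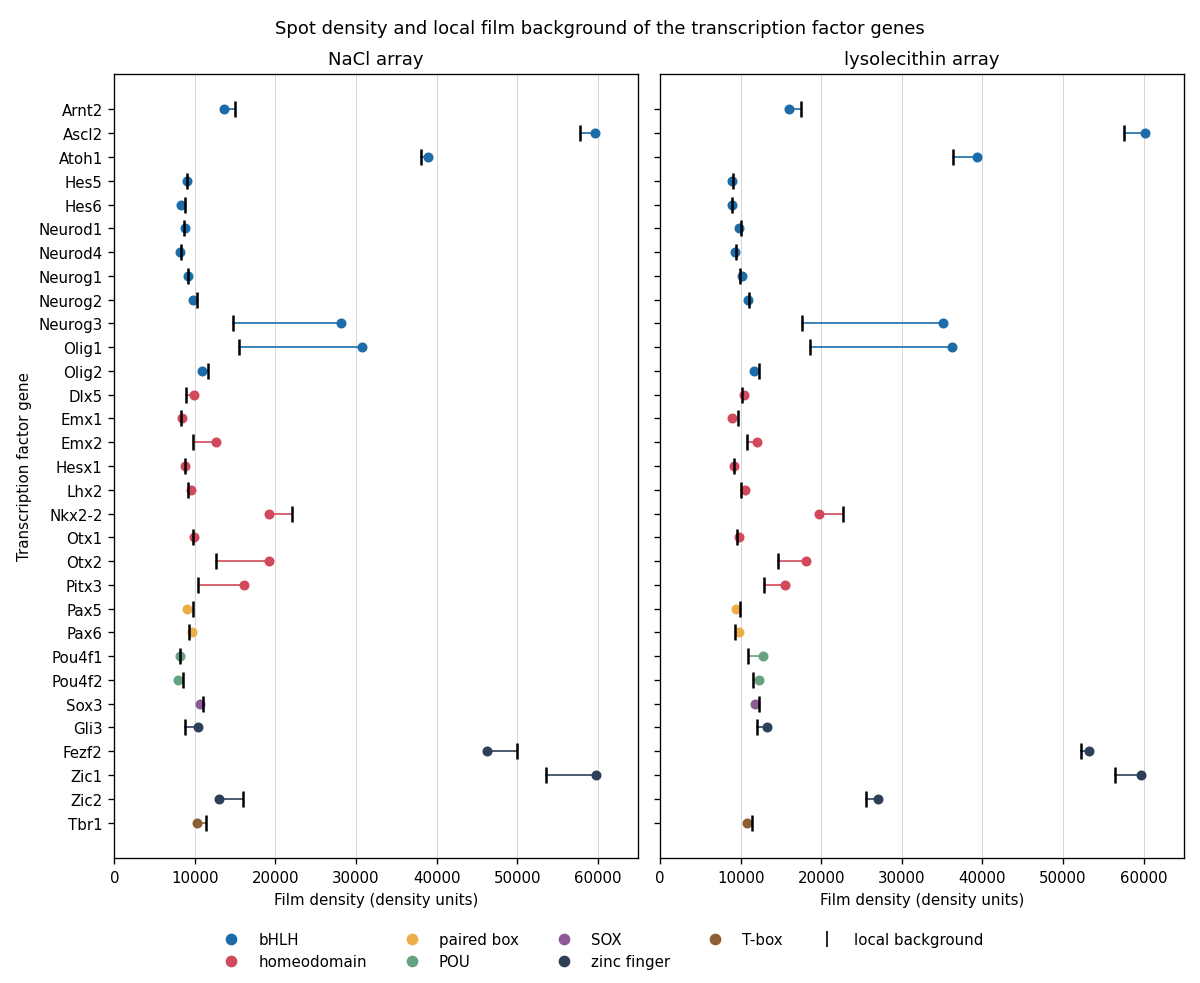
Spot density (coloured circle, by DNA-binding class) and local background (black tick) of 31 transcription factor genes, in density units, on the NaCl array (left) and the lysolecithin array (right), 1 spot per gene and array. Neurog3 and Olig1 lie far to the right of their ticks on both arrays, while Ascl2, Atoh1 and Zic1 are dark spots on film that is nearly as dark. The dark spot of Fezf2 lies left of its tick on the NaCl array, at 46228 against 50012.

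The bHLH class had 13 members. Neurog3, a proneural factor best known for specifying endocrine precursors of the pancreas, had a density of 28122 over a local background of 14768 on the NaCl array. On the lysolecithin array it had 35054 over 17573. The spot was thus 1.90 and 1.99 times its local background, clear of the film on both arrays and brighter on the lysolecithin array. Olig1, an oligodendrocyte lineage factor with a known role in myelin repair, had 30746 over 15519 on the NaCl array. On the lysolecithin array it had 36196 over 18566, so it was 1.98 and 1.95 times its local background.

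After subtraction of each array's lowest density and scaling to Gapdh and Ppia, the log2 ratio was 0.43 for Neurog3 and 0.32 for Olig1. Neither reached the threshold of 1.5-fold. Among the 21 genes above the film on both arrays, 4.76% passed it upward and 4.76% downward. With only 2 members in that set, their count of 0 cannot be compared with these shares. Neurog3 had the fourth highest ratio of the 21 and Olig1 the seventh, in a range from -0.59 to 0.73 with a median of -0.12. The median of both members was 0.37. With the local background of these spots subtracted in place of the lowest density, the ratios were 1.37-fold and 1.21-fold. The scaling factor was kept from the lowest-density setting, so Gapdh and Ppia were not set equal again.

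These sizes were not far from the spread of repeated control spots. The log2 ratios of repeated spots of Gapdh, Ppia and B2m had an SD within a gene of 0.27 over 9 spots. Most of it came from 1 Gapdh spot at -0.63 and 1 B2m spot at -0.40, both below their local film on the lysolecithin array. They went from 38938 to 27794 and from 26389 to 22067, the control densities closest to those of Neurog3 and Olig1. In size their log2 ratios were similar to or larger than those of Neurog3 and Olig1. The other 7 lay between 0.0036 and 0.15, at densities of at least 56207 on both arrays, near the ceiling or just under it. Of the 6 Gapdh and Ppia spots, which set the scaling, 4 were near the ceiling on both arrays. The SD is therefore a rough guide only for spots like those of Neurog3 and Olig1.

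The film beside both spots was also darker on the lysolecithin array. The log2 ratio of local background was 0.25 for Neurog3 and 0.26 for Olig1, with a median of 0.12 over the 230 genes that are not members. Both spots touch the bright spot of Nrxn2, which lies between them at a corner of each and went from 40577 to 44514. The part of the film and of this neighbour in the 2 ratios was not tested. The 8 spots around each, Nrxn2 among them, had median densities of 10712 and 11793 on the NaCl array, so most of that surrounding was dim.

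The promoter of Neurog3 is shown because it is the one of these 2 bHLH genes with an entry in the RefSeq promoter table (build GRCm38.p6), where 26 of the 33 members have one. The line gives the 250 bases before the annotated start, chr10:62132840-62133089 on the plus strand, 5′ to 3′, with the E box in capitals.
Neurog3: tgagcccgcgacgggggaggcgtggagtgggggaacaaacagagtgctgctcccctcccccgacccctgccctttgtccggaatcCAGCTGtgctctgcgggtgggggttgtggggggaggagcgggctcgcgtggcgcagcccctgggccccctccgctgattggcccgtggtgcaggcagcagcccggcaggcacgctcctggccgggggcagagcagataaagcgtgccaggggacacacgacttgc
The search for CANNTG, read on both strands, found 1 match, and 66.2% of the 32851 promoters in the table hold at least 1 in the same window. The N box CACNAG, a sequence bound by Hes repressors, had 0 matches there on either strand, against 36.7% of all promoters with one. Over the 33 promoters listed for members, 20 held CANNTG and 7 held CACNAG. A match of these letters is a description of the sequence and not a binding site.

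The relatives of these 2 genes on the same membrane were at film level. Olig2, which specifies oligodendrocyte precursors and neighbours Olig1 in the genome and on the membrane, had 10826 over 11647 on the NaCl array and 11708 over 12295 on the lysolecithin array. Neurog1 had 9199 over 9094 and 10181 over 9892, and Neurog2 had 9792 over 10214 and 10946 over 11000; both drive neuronal differentiation in the embryonic nervous system. Olig2 and Neurog2 thus lay below the film around them on both arrays, and Neurog1 within 1.03 times of it.

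Ascl2, known from trophoblast and intestinal stem cells, had 59712 over 57760 on the NaCl array and 60231 over 57603 on the lysolecithin array. Atoh1, which specifies cerebellar granule neuron precursors, had 38944 over 38039 and 39359 over 36406. The authors called both genes present on both arrays. The 2 spots were dark, yet only 1.03 and 1.05 times (Ascl2) and 1.02 and 1.08 times (Atoh1) their local film. Ascl2 was marked by the authors as bleeding, a spot whose signal spreads over the film, and Atoh1 is the spot beside it. That mark stood on both arrays at 3 of 33 members, Ascl2, Fezf2 and Zic1, and at 2.28% of all genes. No direction is given for Ascl2, whose density was at the ceiling.

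The remaining bHLH members were low. Hes5, a repressor switched on by Notch, had 9077 over 9080 on the NaCl array and 8869 over 9053 on the lysolecithin array. Hes6, which counters other Hes proteins, had 8317 over 8786 and 8925 over 8911. Neurod1 and Neurod4, which act downstream of proneural genes, lay between 0.98 and 1.01 times their local background. Arnt2, a bHLH-PAS partner protein of hypothalamic neurons, had 13659 over 14990 and 16025 over 17509. All of these spots were at or near the level of the film on both arrays.

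The homeodomain class had 9 members, of which 2 were above the film on the NaCl array but 0 on the lysolecithin array. Otx2, which patterns the forebrain and midbrain and stays on in the choroid plexus, had 19204 over 12634 on the NaCl array. On the lysolecithin array it had 18171 over 14622. Pitx3, a factor of midbrain dopamine neurons and the lens, had 16065 over 10404 on the NaCl array and 15473 over 12852 on the lysolecithin array. The spots themselves hardly differed between the arrays, while the film around them was darker on the lysolecithin array, with log2 local background ratios of 0.21 and 0.30.

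Both genes encode homeodomains of the bicoid-like kind, and their spots are vertical neighbours at the left edge of the membrane. The Otx2 spot also meets, at a corner, that of Ntf5, which was near the ceiling and marked as bleeding on both arrays. The part of Ntf5 in the film around Otx2 was not tested. The excess over local background went from 6571 to 3549 units for Otx2 and from 5661 to 2620 for Pitx3. Both differences, -3021 and -3041, ranked 239 and 240 from the highest among 263 genes, above the 5th percentile of -4717. Since the lysolecithin spots were not above the film, no fold is given for either gene. On the NaCl array both lay just past the threshold, at 1.52 and 1.54 times local background, and the nearest member under it was Emx2 at 1.29. The authors called Otx2 present on both arrays and Pitx3 on the NaCl array.

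Emx2, which patterns the cerebral cortex, had 12669 over 9820 on the NaCl array and 12006 over 10729 on the lysolecithin array, or 1.29 and 1.12 times the film. Its relative Emx1 had 8431 over 8261 and 8972 over 9622. Dlx5, a factor of forebrain interneurons, had 9842 over 8849 and 10368 over 10117, so that its excess over the film was 993 and 251 units. These 3 spots sit close together on the membrane, and all had a smaller excess on the lysolecithin array.

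Nkx2-2, which promotes oligodendrocyte differentiation, had 19222 against a darker film of 22089 on the NaCl array and 19754 against 22744 on the lysolecithin array. It was the homeodomain spot furthest under its film, at 0.87 times on both arrays, and 2 of its 8 neighbours on the NaCl array were near the ceiling. Lhx2, a regulator of forebrain and eye growth, had 9506 over 9144 and 10546 over 10048. Otx1, the relative of Otx2, had 9889 over 9823 and 9734 over 9531, and Hesx1, a factor of the anterior forebrain and pituitary, lay at 0.99 and 1.00 times its film. None of these 4 was called present by the authors.

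The paired box genes were both at film level. Pax6, which directs dopaminergic interneuron fate in the olfactory bulb, had 9579 over 9321 on the NaCl array and 9824 over 9343 on the lysolecithin array. Pax5, known from B cells and the midbrain boundary, had 8966 over 9771 and 9454 over 9883. The excess of Pax6 over the film was 258 units with NaCl and 481 with lysolecithin. That difference of 222 lay within the middle range of all genes, from -759.9 at the 25th to 317.6 at the 75th percentile.

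**Figure D2:**
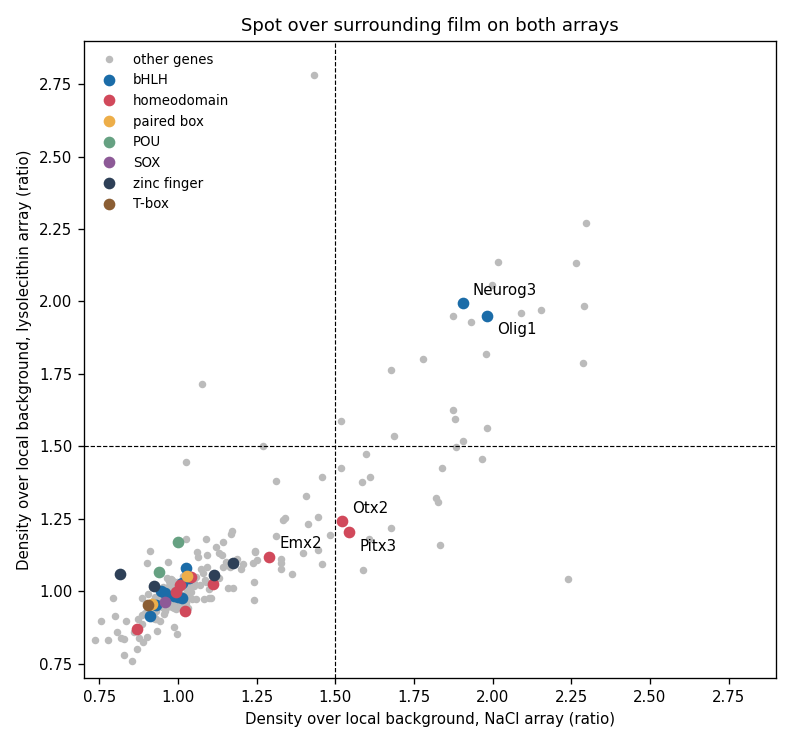
Spot density over local background (ratio, no unit) on the NaCl array (horizontal) and the lysolecithin array (vertical) for 261 genes, with 31 transcription factors coloured by class and the dashed lines at 1.5. Neurog3 and Olig1 lie in the upper right field, Otx2 and Pitx3 just right of the vertical line only, and Emx2 left of it at 1.29.

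The POU class had 2 members, Pou4f1 and Pou4f2, which specify sensory neurons and retinal ganglion cells. Pou4f1 had 8133 over 8142 on the NaCl array and 12757 over 10894 on the lysolecithin array. Pou4f2, the spot next to it, had 7944 over 8466 and 12310 over 11543. Both spots were brighter on the lysolecithin array, as was their film. Their log2 density ratios were 0.65 and 0.63, and the log2 local background ratios at the same places were 0.42 and 0.45.

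On the scale with the lowest density subtracted, the log2 ratios of Pou4f1 and Pou4f2 were 2.50 and 2.72, the highest of all members. They rest on NaCl spots only 832 and 642 units over the lowest density of that array, so their size cannot be read as a fold of RNA. In units over the film, Pou4f1 differed by 1871 and Pou4f2 by 1289, ranking 22 and 27 from the highest of 263 genes. On the lysolecithin array the spots were 1.17 and 1.07 times their film, and the authors called both absent on both arrays. Around Pou4f1, 7 of 8 neighbouring spots, Pou4f2 among them, were brighter on the lysolecithin array, with a median log2 density ratio of 0.20.

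Sox3, the only SOX gene on the array and a factor of neural precursors, had 10572 under a film of 11047 on the NaCl array and 11840 under 12310 on the lysolecithin array. Its excess was nearly equal, at -475 and -470 units. Tbr1, a T-box factor of maturing cortical glutamatergic neurons, had 10280 over 11364 and 10814 over 11358. Both were under film level on both arrays.

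The zinc finger class had 4 members and 0 above the film on either array, although the authors called 1 of them present on the NaCl array but 3 on the lysolecithin array. Zic1, a factor of cerebellar precursors, had 59729 over 53617 on the NaCl array and 59691 over 56519 on the lysolecithin array. It was near the ceiling and marked as bleeding on both arrays, so no direction is given for it. Fezf2, which specifies projection neurons to the spinal cord, had 46228 against a film of 50012 and 53179 over 52240, and it was marked as bleeding on both arrays.

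Zic2, a relative of Zic1 with a role in the dorsal midline, had 12973 against a film of 15912 on the NaCl array and 27055 over 25537 on the lysolecithin array. Its spot was thus about as dark as the film on the lysolecithin array, at 1.06 times. The excess of Fezf2 differed by 4723 units and that of Zic2 by 4458, ranking 7 and 10 from the highest of 263 genes, beyond the 95th percentile of 3041. In both, the excess was negative on the NaCl array and 939 and 1518 units on the lysolecithin array. On both arrays Fezf2 lay between 2 spots near the ceiling, Hsp90ab1 and Zfp91, and Zic2 lay beside 1, Zic1. These neighbours were marked as bleeding on both arrays, and their part in the differences was not tested. The 2 control spots to the right of Zic2 went from 9527 and 10014 to 16778 and 16136, over films of 15676 and 15250 on the lysolecithin array. The part of the darker film in the Zic2 value was not tested.

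Gli3, a Hedgehog pathway factor that acts mostly as a repressor, had 10328 over 8805 on the NaCl array and 13262 over 12082 on the lysolecithin array. Its spot was brighter on the lysolecithin array, but its excess over the film was smaller, 1180 against 1523 units. Its spot lies at the right edge of the membrane, where the film was darker on the lysolecithin array, with a log2 ratio of local background of 0.46.

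**Figure D3:**
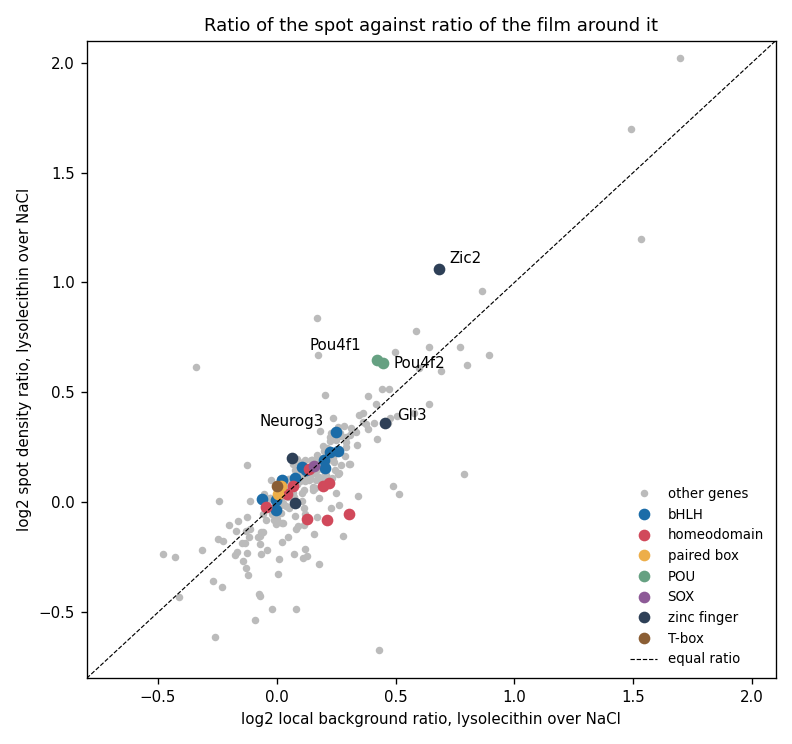
Log2 ratio of spot density, lysolecithin over NaCl, against the log2 ratio of the local background at the same spot, for 261 genes, with 31 transcription factors coloured by class and a dashed line of equal ratio. Members with brighter spots, such as Gli3, Pou4f1, Pou4f2 and Zic2, also had darker film.

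Across the members, spot and film tended to differ in the same direction. The spot was denser on the lysolecithin array for 27 of 33 members, against 68.1% of all genes, and the local background for 28 of 33, against 77.6%. Over the 33 members the log2 density ratio and the log2 local background ratio had a Pearson r of 0.82 and a Spearman rho of 0.66, and over the 230 other genes 0.81 and 0.79. These are descriptions across spots that share the same 2 films, and each local background can hold some of its own spot's signal. After the local background was subtracted, 19 of 33 members had the higher excess on the lysolecithin array, against 42.6% of all genes. The median difference was 136.0 units for members and -139.0 for all genes, both small beside the range from the 5th to the 95th percentile over all genes, -4717 to 3041.

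With no filter on the film, 5 of 33 members passed 1.5-fold upward, among them Gli3, Pou4f1, Pou4f2 and Zic2, against 19.4% of all genes. Downward, 3 passed, namely Emx1, Hes5 and Otx1, against 17.5%. None of the 8 was above the film on either array. The lowest log2 ratio, -1.47 for Hes5, came from densities of 9077 and 8869, which differ little before the lowest density is subtracted. The log2 ratio of Gli3 was 0.79, while its excess over the film was smaller on the lysolecithin array. Shares of members near those of all genes are no result about the members.

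**Figure D4:**
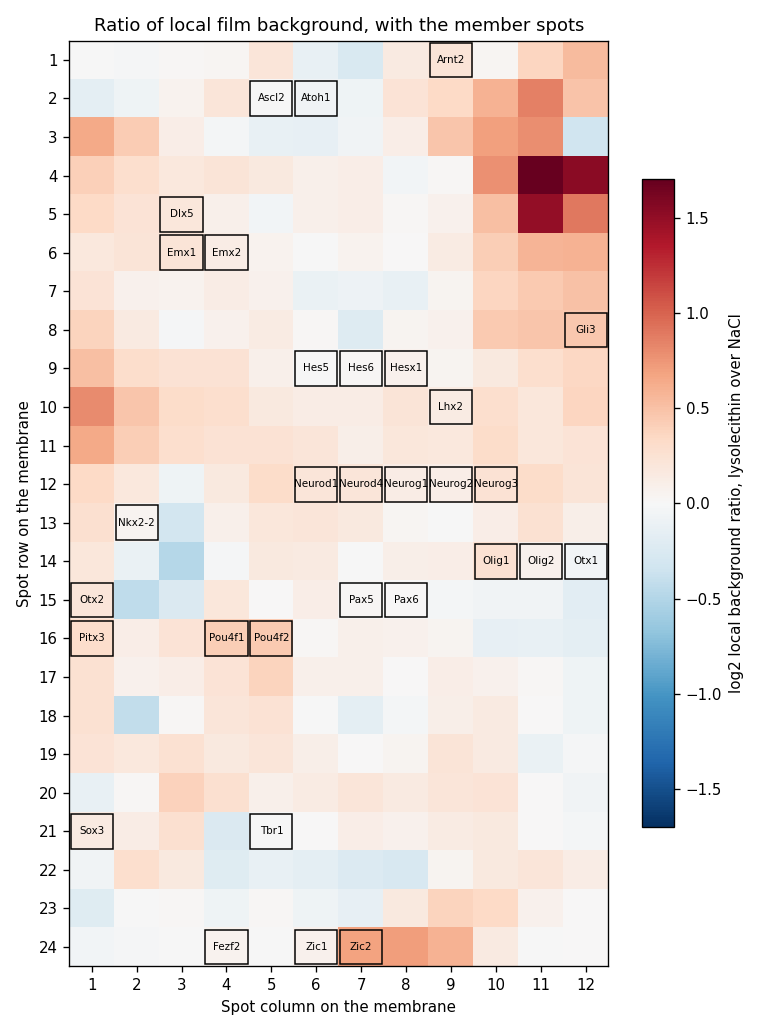
Layout of the membrane, 24 rows of 12 spots, coloured by the log2 ratio of local background, lysolecithin over NaCl, with 31 transcription factor spots boxed and named. Red marks film that was darker on the lysolecithin array, as around Zic2, Gli3 and the Pou4f pair, and pale boxes such as Hes5, Pax6 and Tbr1 had nearly equal film.

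The authors' own calls gave a larger set. They called 7 of 33 members present on the NaCl array (22.1% of all genes) and 8 on the lysolecithin array (20.9%), with 6 on both (18.6%), namely Ascl2, Atoh1, Neurog3, Olig1, Otx2 and Zic1. Every member called present was darker than its local film, by as little as 1.02 times, and had a density of at least 16065 on the NaCl array or 18171 on the lysolecithin array. The members called absent were either at or below their film, 17 with NaCl and 14 with lysolecithin, or above it at densities of up to 12669 and 15473. Of the members called present, 4 of 7 and 2 of 8 were at least 1.5 times their film.

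Lists for Notch, Hedgehog, Wnt and BMP signals and for coregulators had 16 genes on the array, and they did not cover every such gene there. The coregulator list had 1, Hdac7a, and left out Pparbp, Hdac9, Hdac5 and Ncoa6. Pparbp was 1.98 and 1.82 times its film and Hdac9 1.59 and 1.07 times, while Hdac5 and Ncoa6 were under their film on both arrays. Of the 16 listed genes, 2 were above the film under NaCl (14.1% of all genes) and 2 under lysolecithin (9.13%). On both arrays 1 was (7.98%), namely Numb, an inhibitor of Notch, with a log2 ratio of -0.086. It was thus the only one of the 16 that the 1.5-fold rule could count, and it did not pass.

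The BMP genes held the other 2. Bmp4, a BMP ligand, had 20618 over 9212 on the NaCl array and 12950 over 12420 on the lysolecithin array, so it was 2.24 and 1.04 times its film. Chrd, a secreted BMP antagonist, had 57990 over 40464 and 88903 over 31963, or 1.43 and 2.78 times its film. The spot of Bmp4 was clear of the film with NaCl and at film level with lysolecithin, and that of Chrd was dark on both arrays. The excess of Chrd differed by 39414 units, ranking 1 of 263 genes, and that of Bmp4 by -10876, ranking 260. Without the filter the log2 ratios were 0.73 for Chrd and -1.44 for Bmp4. The Chrd spot was near the ceiling on both arrays. Its 88903 on the lysolecithin array lay beyond the densities at which the other darkest spots piled up. As with Ascl2 and Zic1, the rank and ratio of Chrd are therefore not read as a direction. Shh and Smo, the Hedgehog ligand and its signal transducer, and Wnt1 were above the film on neither array.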

How the data were processed

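Per the file headers, the deposited workbook holds an intensity for each spot, the average density on the film, and a local background intensity. Per the labels, films were read in GEArray Expression Analysis Suite 2.0. Present and bleeding calls are the authors'. The members and lists were chosen with earlier results of these data known.

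Symbols were joined by position to densities of both arrays. The lowest density (7301 for NaCl, 8256 for lysolecithin) was subtracted, and lysolecithin values were multiplied by 1.05 so that the mean of 6 Gapdh and Ppia spots was equal; beta-actin was not found on this array. The ceiling rule was 0.95 of the second highest density. All 33 members were matched by accession to RefSeq (GRCm38.p6). Named were members above the film on 1 array or past 1.5-fold, class extremes and known regulators; the others were named after their values were seen. Values of 2 members are not reported here, by name or in the plots, but they count among the 33. The table of 128 unnamed spots was not used. The number of arrays limits the precision. Values were computed in Python 3.11.15 with SciPy 1.17.1 and NumPy 2.4.6, and plotted with matplotlib 3.10.9. The arithmetic was checked on the NaCl array set against a copy of itself with 2-fold changes planted in some genes, without added noise.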

Additional observations from a re-analysis of the deposited data

How the results depend on the processing

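The counts above the film depend on the rule. At 2 times local background, 0 members passed on the NaCl array, 0 on the lysolecithin array and 0 on both. By the authors' present calls the counts were 7, 8 and 6. At 125% of local background they were 5, 2 and 2. At 1.5 times with bleeding spots left out they were 4, 2 and 2, as with them. The counts past 1.5-fold were 0 in each direction under 8 of the 9 alternatives, and 5 higher and 3 lower with no filter. The median log2 ratio of Neurog3 and Olig1 stayed between 0.31 and 0.37 under other subtractions and scalings. Over the 6 genes called present on both arrays it was 0.046, and over all 33 members 0.052, because members at film level or near the ceiling then enter. Directions of dim members are not firm. Without background subtraction 8 of 33 log2 ratios changed sign (Dlx5, Emx1, Hes6, Hesx1, Otx1, Pax5, Pax6 and Tbr1), with Emx1 at 0.12 and Otx1 at 0.0070. With local background subtracted and the scaling factor of 1.05 kept, 14 members had a value and 4 changed sign. These were Otx1 at 1.68, Pax6 at 0.96, Gli3 at -0.30 and Zic1 at -0.88. Without scaling 5 ratios near 0 changed sign, and with medians set equal 1 did. No paired analysis was possible because neither the NaCl nor the lysolecithin group has a second sample.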

Other observations

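Choosing by symbol left out related factors on the same array, which are given here after their values were seen. Lmx1a, a LIM homeodomain factor of midbrain dopamine precursors, was above the film on both arrays, with 16869 over 11103 on the NaCl array and 21486 over 13524 on the lysolecithin array. Its log2 ratio of 0.53 was under 1.5-fold. Its relative Lmx1b was at film level, with 9819 over 9414 and 10482 over 10761. Runx3, a Runt family factor of sensory neurons, had 53936 over 26985 and 49230 over 23952, or 2.00 and 2.06 times its film, and a log2 ratio of -0.12. Titf1, the older name of Nkx2-1, a factor of the ventral forebrain, had 8563 over 8443 and 8910 over 9128. Gsh2, now named Gsx2, a factor of the precursors that form the lateral ganglionic eminence, had 10390 over 8355 and 11720 over 10312, or 1.24 and 1.14 times its film.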
